A study of Mus musculus with 3 samples.

Results

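Cluster 4 is a group of 512 conventional type 1 dendritic cells (cDC1s) among the 5806 cDC1s that the authors' table lists, out of 30209 barcodes in the deposited matrices. Its cells were chosen by their cluster number alone, taken from the table's clustering of tumour cDC1s at a resolution of 0.8, and matched to the matrices by barcode. They came from MCA205 LA-OVA tumours, a transplanted mouse fibrosarcoma line carrying a model antigen, harvested on day 5. There was 1 droplet-based RNA library per genotype, so no genotype had a replicate. The WT library pooled 25 male and 12 female mice, the sGSN-/- library 15 and 16, and the sGSN-/-Clec9a-/- library 10 and 17, in the same order, all 6 to 20 weeks old and on the C57BL/6J background. Mice of the sGSN-/- genotype lack secreted gelsolin, an actin-severing plasma protein, and sGSN-/-Clec9a-/- mice also lack Clec9a, the cDC1 receptor for actin filaments of dead cells. Precursors of conventional dendritic cells (pre-cDCs), cDC1s and type 2 dendritic cells (cDC2s) had been sorted and pooled, so only shares among cDC1s are given below.

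Pre-cDCs leave the bone marrow, travel through blood and turn into cDC1s or cDC2s inside tissues. As they do so they lose genes of homing and immaturity and gain genes of their lineage. For cDC1s these are the transcription factors Irf8, Batf3 and Id2 and surface molecules such as Xcr1, a chemokine receptor, with which cDC1s meet cytotoxic T cells and natural killer (NK) cells.

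Values for the 3 libraries stand below in the order WT, sGSN-/- and sGSN-/-Clec9a-/-. Cluster 4 held 194, 169 and 149 cells in them, and the other cDC1s held 2122, 1543 and 1629. The matrices held 176578136, 109270958 and 113411930 unique molecular identifiers (UMIs, each standing for 1 captured transcript), of which 2573510, 2015074 and 1764889 belonged to cluster 4. Its median cell carried 11844, 11214 and 9864 UMIs, fewer than the 14281, 14533 and 12412 of the other cDC1s. Levels are given as CPM, the UMIs of a gene divided by all UMIs of the cell group and multiplied by 1000000.

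Cluster 4 made up 8.38% of the cDC1s in the WT library (exact Clopper-Pearson 95% interval 7.28 to 9.58), 9.87% in sGSN-/- (8.50 to 11.4) and 8.38% in sGSN-/-Clec9a-/- (7.13 to 9.77). The 3 intervals overlapped, and like all intervals given here they cover counting error only. Libraries shared 26, 28 and 27 barcode sequences pairwise, none of them between cells that were cluster 4 in both libraries. Cells with high doublet scores were more frequent here than elsewhere: the top 6% of scores per library took in 11.3%, 4.14% and 14.8% of cluster 4, against 0.642% of all other cDC1s. Their part in the differences below was not tested as a cause, but values without them are given for genes whose call or direction was seen to change.

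The 3 genes given as marks of these cells were checked first. Ifitm1, a small membrane protein of the interferon-induced family, stood at 873, 716 and 767 CPM here and at 193, 220 and 175 CPM in the other cDC1s. S100a4, a calcium-binding protein of motile cells, stood at 834, 587 and 770 CPM against 85.5, 101 and 86.6 CPM. Cd209a, a C-type lectin best known from cDC2s and their precursors, stood at 210, 162 and 177 CPM against 9.70, 13.6 and 9.08 CPM. All 3 genes were higher in cluster 4 in each library. Because the clusters had been drawn on these same counts, every comparison of cluster 4 with other cells is a description of the cluster. Only the test on held-out UMIs further on kept the measured counts out of the clustering. Its group was still picked by overlap with cluster 4, so it is no independent test of the given markers or of other genes that set cluster 4 apart. Whether these cells are early in time was not measured.

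Across the clusters of the table, the 3 genes did not follow each other. Mean Ifitm1 was as high in cluster 1, the other cluster that the study calls early, with 817 CPM against 785 CPM in cluster 4. Mean S100a4 was 730 CPM in cluster 4 and 193 CPM in cluster 1. Mean Cd209a was 183 CPM in cluster 4 and 19.6 CPM in cluster 1, while the 76 cells of cluster 10 reached 211 CPM. All 3 genes had higher means in pre-cDC-like cells, a group rebuilt here from all barcodes: 2141 CPM for Ifitm1, 2831 CPM for S100a4 and 691 CPM for Cd209a. S100a4 and Cd209a thus lay between cluster 1 and pre-cDC-like cells, whereas Ifitm1 separated cluster 4 and cluster 1 together from most other cDC1s.

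**Figure D1:**
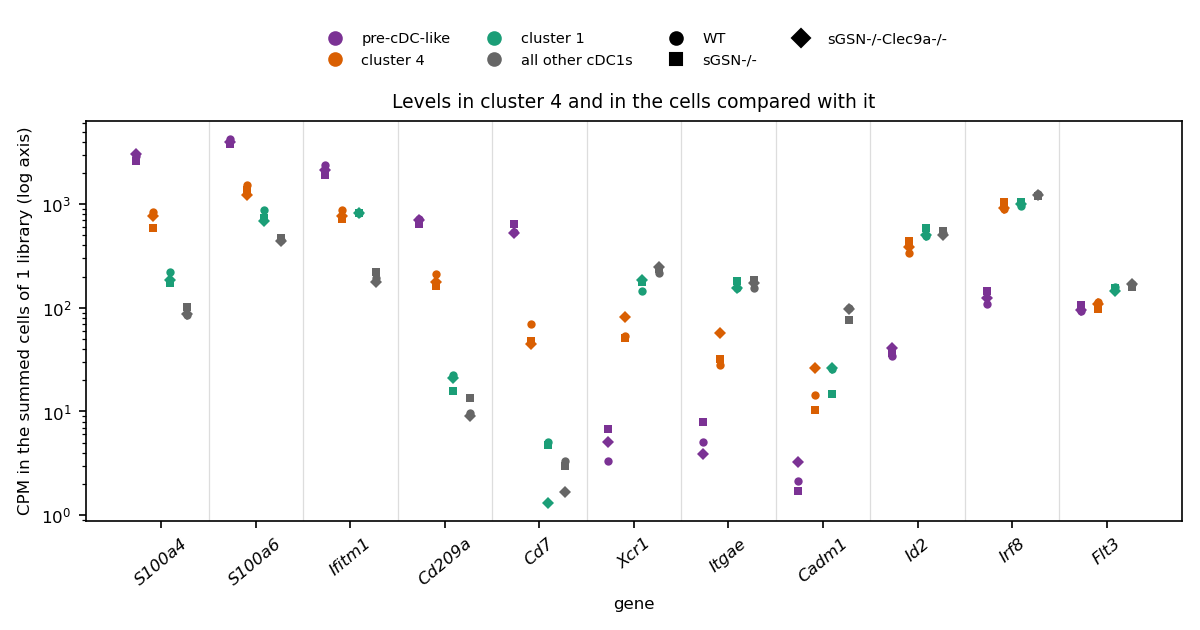
Levels (CPM, log axis) of 11 genes in pre-cDC-like cells, cluster 4, cluster 1 and all other cDC1s, with 1 point per library and the marker shape giving the library. Xcr1 was 54.0, 51.1 and 81.0 CPM in cluster 4 against 218, 239 and 246 CPM in all others, while Cd7 was 69.6, 48.1 and 44.8 CPM against 3.32, 2.97 and 1.67 CPM.

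To place the cells among all sorted populations, 28855 barcodes were clustered again and the new clusters were named from fixed markers. Of the 512 cells, 388 (75.8%) fell into a cDC1-like cluster that also took 688 of the 820 cells of cluster 1. Another 39 fell into the pair of pre-cDC-like clusters, which took 0 cells of cluster 1, and 29 fell into a cDC1-like cluster led by interferon-response genes. A further 22 joined the main cDC1-like cluster, 22 an unnamed cluster in which 86.6% of barcodes had top doublet scores, and 12 further unnamed ones. Cluster 4 was therefore mixed in this second clustering. The pre-cDC-like clusters had 4 and 5 pre-cDC naming markers raised, and each also had 3 cDC2 naming markers raised.

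Those subsets differed in the genes that mark the cluster. The 37 cells in the larger pre-cDC-like cluster carried 1122 CPM of Ifitm1, 1734 CPM of S100a4, 527 CPM of Cd209a and 187 CPM of Cd7, with 2.37 CPM of Xcr1. The 388 cells carried 773 CPM of Ifitm1, 611 CPM of S100a4, 158 CPM of Cd209a and 44.8 CPM of Cd7, with 23.3 CPM of Xcr1. The 29 interferon-led cells had a median of 25529 UMIs, beside 10978 in the 388. Top doublet scores were found in 7 of the 29 and 21 of the 388, and their part was not tested. The 17 listed interferon-response genes summed to 4813 CPM in the 29 against 442 CPM in the 388. Those 29 cells add to the interferon genes described below, and the counts and medians of that list are given there without them, with values for some of its genes.

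The nearest neighbours of each cell told the same mixture at the level of single cells. Among the 19 nearest neighbours, pre-cDC-like cells made up 6.16%, 5.17% and 4.52% for cluster 4, against 0.0513% for cluster 1 over all libraries. At least 1 pre-cDC-like neighbour was found for 24.7%, 21.9% and 22.8% of cluster 4 cells. The share was 0.488% of cells in cluster 1, 6.58% in cluster 10 and 0 in clusters 0, 2, 3 and 6. Most neighbours of cluster 4 were its own cells (42.6%) or cells of cluster 1 (19.6%). Neighbours were found on the same counts as the clusters, so these shares describe them and test nothing.

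**Figure D2:**
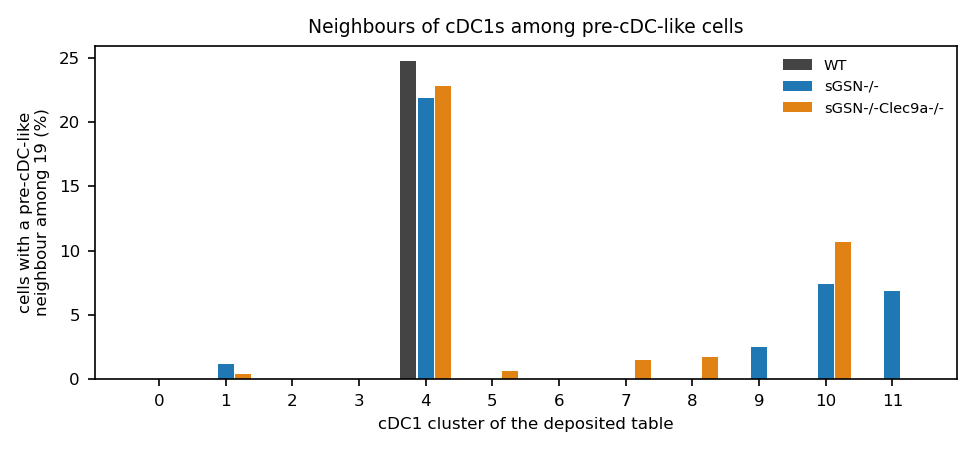
Percent of cells with at least 1 pre-cDC-like cell among their 19 nearest neighbours, for each cDC1 cluster of the table, with 1 bar per library. Cluster 4 sits at 24.7%, 21.9% and 22.8%, above the other clusters in each library.

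Marks of both sides were also counted in single cells. After thinning every cell to 3900 UMIs, Cd209a was detected in 33.0%, 25.6% and 33.6% of cluster 4 cells, and before thinning in 45.4%, 36.1% and 44.3%. NK-like cells, which should lack Cd209a, showed 3.39%, 2.56% and 3.02% after thinning, at median depths of 9656, 7581 and 6273 UMIs before it. Cluster 1, with 4.73%, 3.57% and 3.31%, lay close to that background, so detection there is not read as expression.

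Xcr1 was detected in 10.99%, 10.6% and 12.9% of thinned cluster 4 cells (23.7%, 17.8% and 26.8% unthinned), with 0.970%, 1.70% and 0.698% in NK-like cells. In cluster 1 it was detected in 33.4%, 41.3% and 39.7% of thinned cells. Of 491 thinned cluster 4 cells, 134 held Cd209a without Xcr1, 39 held Xcr1 without Cd209a, 17 held both and 301 held neither. The 17 cells were 3.46% (exact interval 2.03 to 5.49), beside 4 of 790 cells in cluster 1 and 23 of 2599 pre-cDC-like cells. Cells thinned this far show only part of their transcripts, so these counts do not tell how many cells expressed both genes.

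Against all other cDC1s, cluster 4 carried more transcripts of precursor and cDC2 genes and fewer of cDC1 identity and maturation genes. Of 10888 genes fitted in edgeR, 1252 were called higher (11.5%) and 1343 lower (12.3%) at an adjusted p of 0.05, and the median log2 fold change was -0.0023. These percentages stand beside the list counts below and nothing is read from them. Without the WT library 614 genes were called higher and 631 lower, and without the sGSN-/- library 814 and 836. Without TMM factors the balance turned, with 1526 higher and 1078 lower. Differences are log2 fold changes with an approximate standard error (SE) derived from the test statistic, each over the 3 libraries of both cell groups.

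Of 10 surface genes of precursors, 6 were higher, 1 was lower and 3 were not called, with a median of 2.05. Cd7, an immunoglobulin-family receptor of early lymphoid and myeloid cells, led the genes called at 50 CPM or more without overlap between libraries with 4.27 (SE 0.21). Cx3cr1, the fractalkine receptor, differed by 2.83 (SE 0.37), Spn (CD43) by 2.30 (SE 0.24), Ly6c2 by 2.22 (SE 0.20) and Cd34, a stem and progenitor marker, by 1.88 (SE 0.25). Flt3, the receptor for the cytokine that sustains dendritic cells and their precursors, was lower, with 113, 97.8 and 110 CPM against 171, 159 and 169 CPM (-0.70, SE 0.08). Kit, Ccr2 and Siglech were not called, and Siglech was near 5 CPM in all 3 libraries of cluster 4. Without the cells of top doublet scores Kit was called higher (0.25, adjusted p 0.0297).

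The Ifitm genes encode small membrane proteins that block the entry of viruses and mostly sit side by side on chromosome 7. All 4 tested members of 5 listed were higher, with a median of 1.47. Ifitm6 stood at 159, 183 and 177 CPM against 16.1, 20.8 and 17.7 CPM (3.19, SE 0.11), and Ifitm1 differed by 1.95 (SE 0.09). Ifitm3 and Ifitm2, far more abundant in both groups, differed by 0.98 (SE 0.09) and 0.57 (SE 0.06). Ifitm10 was too low to be tested.

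Among the calcium-binding S100 genes, 6 of 9 could be tested, and S100a4, S100a6 and S100a10 were higher. S100a4 differed by 2.95 (SE 0.12). S100a6, its neighbour on chromosome 3, stood at 1521, 1358 and 1215 CPM against 452, 476 and 437 CPM (1.53, SE 0.07). S100a10, the partner of annexin A2, differed by 1.14 (SE 0.08). S100a1 was lower by -0.84 (SE 0.14) and S100a11 by -0.27 (SE 0.06), and S100a13 was not called. S100a11 was no longer called without the WT library (-0.26, adjusted p 0.0664) or after thinning (-0.19, adjusted p 0.108).

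Genes of annexins, galectins and actin-binding proteins, which shape the cell's cortex and its movement, gave 11 higher, 3 lower and 10 not called of 24, with a median of 0.13. The filament-capping gene Capg led with 2.47 (SE 0.24), and Vim, the intermediate filament vimentin, stood at 3414, 3855 and 2864 CPM against 1970, 1815 and 1684 CPM (0.83, SE 0.09). Lgals1 (galectin-1) differed by 0.79 (SE 0.07) and Anxa2 by 0.55 (SE 0.08). Fscn1, which bundles actin in mature dendritic cells, was the lowest of the list, with 1.17, 0.993 and 0 CPM against 37.7, 52.0 and 12.4 CPM. Anxa4 and Tmsb4x were the other lower members.

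Identity genes of cDC1s were lower as a group: 17 of 19 were called lower, 0 higher, with a median of -1.001. Cadm1, the adhesion molecule that cDC1s use to hold T cells, stood at 14.4, 10.4 and 26.1 CPM against 99.2, 77.0 and 96.6 CPM (-2.53, SE 0.22). Xcr1 differed by -1.996 (SE 0.14), Itgae (the integrin CD103) by -2.23 (SE 0.18) and Plpp1, a lipid phosphatase, by -2.42 (SE 0.24). The sensor Tlr11 differed by -1.76 (SE 0.22). The core transcription factors were closer to the other cDC1s: Irf8 differed by -0.42 (SE 0.07) and Id2 by -0.49 (SE 0.08).

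Batf3 and Clec9a were the remaining members of that list. Batf3 stood at 247, 288 and 262 CPM against 263, 267 and 261 CPM and was not called (-0.05, SE 0.07). Clec9a stood at 91.3 and 99.7 CPM in the WT and sGSN-/- libraries against 175 and 175 CPM, and it was not called in a fit that included the knock-out library, where cluster 4 had 0 UMIs. With the library as a block, Clec9a was called (-0.93, adjusted p 5.0e-07), as it was without the sGSN-/-Clec9a-/- library (-0.94, adjusted p 4.6e-05) or with no filter on low counts (-0.91, adjusted p 1.2e-19).

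The cDC2 list, of surface genes with the transcription factors Irf4 and Klf4, moved the other way. It gave 11 higher and 2 lower of 13 and a median of 2.04. Irf4 was among the higher members, and both factors are counted again among the transcription factors below. Cd209a differed by 4.04 (SE 0.14) and its relative Cd209d by 3.33 (SE 0.35), though the latter reached only 9.33, 15.9 and 6.23 CPM. Sirpa, which defines cDC2s by flow cytometry, stood at 14.8, 13.4 and 18.1 CPM against 2.72, 1.72 and 1.52 CPM (2.85, SE 0.26). After thinning it was detected in 3.66%, 3.75% and 1.43% of cluster 4 cells, close to the 2.30%, 1.11% and 2.09% of NK-like cells. In rebuilt cDC2-like cells the shares were 39.0%, 40.4% and 38.7%, so detection of Sirpa in single cells of cluster 4 is not read as expression. Csf1r, the receptor for macrophage colony-stimulating factor, differed by 2.72 (SE 0.28), Itgam (CD11b) by 2.60 (SE 0.17) and the lectin Clec10a by 2.38 (SE 0.16). Clec12a (-0.81, SE 0.12) and the transcription factor Klf4 (-0.46, SE 0.08) were lower.

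Transcription factors of dendritic cells were divided, with 5 higher, 5 lower and 9 not called of 19. Zeb2, which represses Id2 in plasmacytoid and cDC2 fates, stood at 52.5, 38.2 and 51.6 CPM against 8.50, 6.68 and 6.39 CPM (2.65, SE 0.15). Irf4, the cDC2 counterpart of Irf8, was higher at a low level (1.14, SE 0.24), but not after thinning (0.47, adjusted p 0.538). Tcf4, the plasmacytoid factor E2-2, differed by 0.77 (SE 0.09) and Runx3 by 0.43 (SE 0.08), and Bcl11a was the remaining higher member. Zbtb46, found in all committed conventional dendritic cells, was lower (-0.66, SE 0.10), though not after thinning (-0.40, adjusted p 0.0811). Bcl6 (-0.57, SE 0.11), Id2, Klf4 and Irf8 were lower too.

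Antigen presentation genes were somewhat lower and lysosomal ones higher. Of 11 genes of the class II pathway, 6 were lower and 1, the protease Ctss, was higher (0.45, SE 0.08), with a median of -0.34. H2-Eb1, a chain of the presenting molecule, stood at 5466, 5786 and 6421 CPM against 8664, 8653 and 8974 CPM (-0.63, SE 0.08), and H2-Ab1 differed by -0.41 (SE 0.08). Class I genes gave 7 lower and 0 higher of 10 with a median of -0.39, among them the peptide transporter Tap1 (-0.65, SE 0.07) and B2m (-0.44, SE 0.08). Lysosomal protease genes gave 9 higher and 3 lower of 13 with a median of 0.45, led by the cathepsins Ctsd (1.24, SE 0.19) and Ctsl (1.03, SE 0.16). Psap, Cst3 and Ctsc were the lower ones, and Ctsd was no longer called after thinning (0.46, adjusted p 0.442).

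Maturation genes gave 13 lower and 0 higher of 16 and a median of -1.77. Ccr7, which guides mature dendritic cells to lymph nodes, stood at 1.55, 0.993 and 6.80 CPM against 83.9, 146 and 32.3 CPM (-4.99, SE 0.81). Il12b, the large subunit of interleukin-12, differed by -4.35 (SE 0.66), and Ccl22, a chemokine for regulatory T cells, by -3.25 (SE 0.47). The monocyte-drawing chemokines Ccl7 (-2.87, SE 0.20) and Ccl2 (-2.25, SE 0.21) were also among the 10 lowest genes called at 50 CPM or more without overlap between libraries. So were Pianp, a ligand of an inhibitory receptor (-2.50, SE 0.19), the tetraspanin Cd81 (-2.39, SE 0.14) and Sept3, a septin (-2.13, SE 0.14).

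The 10 largest differences were taken among genes called at 50 CPM or more without overlap between libraries. Besides those named above, these 10 genes included Plaur, the urokinase receptor, with 60.6, 55.6 and 55.0 CPM against 8.34, 7.75 and 7.81 CPM (2.78, SE 0.10). Emilin2, an extracellular matrix glycoprotein, differed by 2.74 (SE 0.11) and I830077J02Rik by 2.67 (SE 0.12). Hmgcs1, an enzyme of cholesterol synthesis, stood at 141, 172 and 91.2 CPM against 31.8, 34.5 and 22.0 CPM (2.14, SE 0.18).

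Interferon-response genes were mixed, with 2 higher, 5 lower and 10 not called of 17 and a median of -0.28. The higher ones were Irf1, with 111, 83.9 and 95.2 CPM against 58.6, 61.9 and 54.3 CPM, and the guanylate-binding gene Gbp2, with 24.1, 6.95 and 10.2 CPM against 5.85, 8.49 and 3.70 CPM. The lower ones included Isg15 (-0.61, SE 0.13), Oasl1 (-1.25, SE 0.37), Usp18 and Irf7. With the interferon-led cluster left out of both groups, 1 was higher and 5 were lower of 16, the median was -0.56 and Gbp2 turned from 1.21 to -0.58 (adjusted p 0.569). Gbp2 was also not called without the cells of top doublet scores (0.0076, adjusted p 0.994) or after thinning (0.96, adjusted p 0.140). Single libraries also decided some calls: Gbp2 fell to 0.42 (adjusted p 0.640) and Oasl1 to -0.91 (adjusted p 0.0946) without the WT library, Oasl1 to -1.02 (adjusted p 0.109) without the sGSN-/- library, and Gbp2 to 1.14 (adjusted p 0.0729) without the sGSN-/-Clec9a-/- library. Oasl1 was not called in DESeq2 (-1.15, adjusted p 0.166) or with only the cDC1-like cells of cluster 4 (-1.07, adjusted p 0.0625).

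Immediate early genes, which respond to stimulation within minutes and also to tissue digestion, gave 12 lower and 1 higher of 16 with a median of -0.45. Egr1 stood at 366, 326 and 410 CPM against 740, 673 and 760 CPM (-1.04, SE 0.10), and Ier2 was the higher member (0.22, SE 0.06). DNA replication genes gave 4 higher (Tipin, Mcm3, Dut and Stmn1) and 0 lower of 18, with 0.75 (SE 0.19) for Tipin and 0.60 (SE 0.13) for Mcm3. Of 15 mitosis genes 0 were called either way. Without the WT library Ier2 (0.18, adjusted p 0.183), Tipin (0.71, adjusted p 0.0940) and Mcm3 (0.43, adjusted p 0.139) were not called. Ier2 was not called without the sGSN-/- library either (0.22, adjusted p 0.124), nor Tipin without the sGSN-/-Clec9a-/- library (0.57, adjusted p 0.0705). After thinning Ier2 (0.22, adjusted p 0.0697) and Mcm3 (0.45, adjusted p 0.267) were not called, and Ier2 also lost its call with no filter on low counts (0.18, adjusted p 0.0841) and with only the cDC1-like cells (0.19, adjusted p 0.0625).

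Markers of other cells were looked up in the same sums. Of 10 tested monocyte or macrophage genes of 13 listed, 4 were higher, among them F13a1 (3.24, SE 0.44), C1qb (1.31, SE 0.34) and Fcgr1, and Lyz2 was lower (-0.31, SE 0.10). Summed, the 13 genes stood at 791, 793 and 1024 CPM in cluster 4 and at 974, 804 and 913 CPM in the other cDC1s, Lyz2 being the most abundant in each, and Vcan was at 0 in all 3 libraries of cluster 4. Their part in the differences above was not tested. C1qb was not called without the sGSN-/-Clec9a-/- library (0.82, adjusted p 0.158) or without the interferon-led cluster in both groups (0.93, adjusted p 0.0595). Lyz2 lost its call under 8 of 12 alternatives, among them without the WT library (-0.19, adjusted p 0.325), after thinning (-0.17, adjusted p 0.245) and without the cells of top doublet scores (-0.29, adjusted p 0.0674).

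Plasmacytoid markers summed to 459, 454 and 431 CPM in cluster 4 against 355, 401 and 364 CPM, with Bst2 the most abundant and Iglc3 at 0 in all 3 libraries of cluster 4. Runx2 and Tcf4 were called higher and Pacsin1 lower among the 7 tested of 11. Of 9 NK cell genes 6 were tested and 0 called, with sums of 176, 194 and 205 CPM against 185, 230 and 179 CPM, most of it Klrk1. T cell genes summed to 2.72, 10.9 and 4.53 CPM with Cd3e at 0 throughout cluster 4, and B cell genes to 6.22, 5.46 and 3.97 CPM, of which Cd79b alone was tested (2.66, SE 0.39) while Cd79a was at 0. Of the 5 neutrophil and 5 fibroblast or tumour markers 0 reached the level needed for testing, with S100a8, S100a9 and Col1a1 at 0 in cluster 4. None of these lists was tested as a source of the differences.

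**Figure D3:**
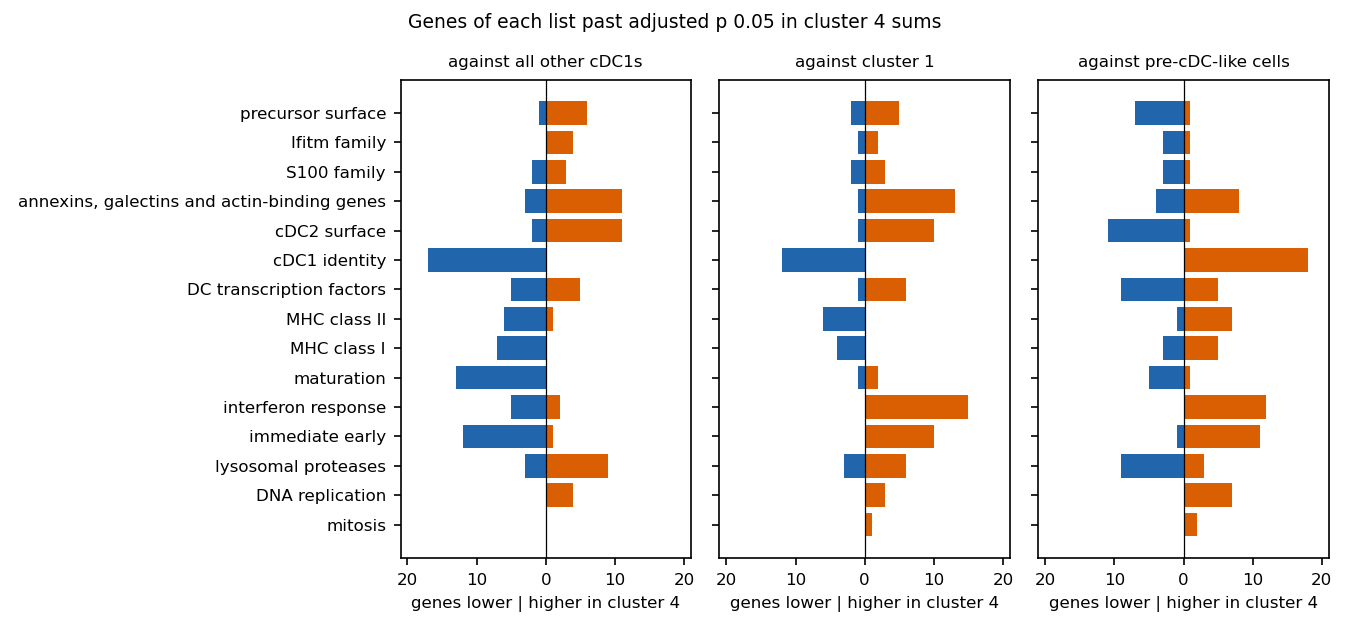
Number of genes called higher (to the right) and lower (to the left) in cluster 4 for 15 gene lists, in the comparisons with all other cDC1s, with cluster 1 and with pre-cDC-like cells. cDC1 identity genes gave 17 lower against the other cDC1s, 12 lower against cluster 1 and 18 higher against pre-cDC-like cells.

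The comparison with cluster 1, the nearest cluster in the table, asks what sets the first of the study's early clusters apart from the second. Most genes of the cDC2 list and 5 of 10 surface genes of precursors were higher in cluster 4. Of 19 identity genes of cDC1s 12 were lower, while Ifitm1 was alike in level. Of 8722 genes 788 were called higher (9.03%) and 629 lower (7.21%), with a median of 0.011. These counts fell to 441 and 267 without the WT library and to 490 and 297 without the sGSN-/- library. This comparison and the one above share the cluster 4 sums, so their values are set side by side and not counted against each other.

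Cd7 stood at 5.12, 4.77 and 1.31 CPM in cluster 1, so that the difference was 3.71 (SE 0.26), close to that against all other cDC1s. Cd209a stood at 22.3, 15.7 and 20.96 CPM (3.14, SE 0.13). Plec, the cytoskeletal linker plectin, differed by 2.64 (SE 0.13) and Rgcc, a regulator of the cell cycle, by 2.32 (SE 0.18). Of the 10 precursor genes 5 were higher, Siglech and Flt3 were lower, and 3 were not called. Siglech, a lectin shared by plasmacytoid cells and some precursors, stood at 5.05, 4.47 and 5.10 CPM in cluster 4 and at 14.4, 17.5 and 21.3 CPM in cluster 1 (-1.92, SE 0.26). Flt3 differed by -0.61 (SE 0.08).

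On the lower side Itgae stood at 28.4, 32.3 and 56.7 CPM in cluster 4 against 154, 181 and 156 CPM in cluster 1 (-2.19, SE 0.17). Plet1, a surface protein of some cDC1s, differed by -2.02 (SE 0.23), Agpat3, an enzyme of phospholipid synthesis, by -1.66 (SE 0.14), and Hepacam2, an adhesion molecule, by -1.59 (SE 0.15). Xcr1 stood at 144, 176 and 185 CPM in cluster 1 (-1.54, SE 0.15). Of 19 identity genes 12 were lower and 0 higher, with a median of -0.63, and Id2 was among them (-0.53, SE 0.09). Batf3 (0.02, SE 0.08) and Irf8 (-0.15, SE 0.08) were not called, but with the library as a block Irf8 was (-0.15, adjusted p 0.0149).

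The families that mark the cluster parted here. Of 6 tested S100 genes 3 were higher (S100a4, S100a10 and S100a6), 2 were lower (S100a1 and S100a11) and S100a13 was not called. S100a4 differed by 1.83 (SE 0.12), with 222, 173 and 185 CPM in cluster 1, and S100a6 by 0.74 (SE 0.09). Ifitm1 stood at 821, 811 and 818 CPM in cluster 1 and was not called (-0.14, SE 0.08), although with the library as a block it was called lower (-0.15, adjusted p 0.0356). Ifitm6 (1.35, SE 0.09) and Ifitm3 (0.38, SE 0.08) were higher and Ifitm2 (-0.30, SE 0.07) lower. Without the WT library Ifitm3 (0.36, adjusted p 0.0770) and Ifitm2 (-0.26, adjusted p 0.0897) were not called, nor was Ifitm2 without the sGSN-/- library (-0.33, adjusted p 0.0525) or after thinning (-0.26, adjusted p 0.0716).

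Ifitm1 and Ifitm2 went the other way in a setting that changed the counts, the resolution and the cells together. When cells were clustered on a random part of their UMIs at a finer resolution and measured on the rest, the cluster with most cluster 4 cells (520 cells, of which 354 were cluster 4 and 147 cluster 1) exceeded the one with most cluster 1 cells (554 cells) in Ifitm1 by 0.48 (adjusted p 0.0118) and in Ifitm2 by 0.32 (adjusted p 0.0382). The calls given above are therefore not read as a direction for these genes between the clusters. This setting was added after the data had been seen.

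The cDC2 list gave 10 higher, Irf4 among them, and 1 lower (Clec12a) of 13, with a median of 1.91. Clec12a was not called after thinning (-0.59, adjusted p 0.0754). Sirpa differed by 2.57 (SE 0.39), Irf4 by 1.91 (SE 0.36) and Csf1r by 2.05 (SE 0.28). Zeb2 stood at 8.14, 5.84 and 5.57 CPM in cluster 1 (2.75, SE 0.19). Annexin, galectin and actin-binding genes gave 13 higher and 1 lower (Tmsb4x) of 22, with a median of 0.39. The higher ones included Capg (2.33, SE 0.31) and the giant scaffold protein gene Ahnak (1.50, SE 0.10). Cd44, an adhesion receptor of another list, was higher too (1.32, SE 0.08). Class II genes gave 6 lower and 0 higher of 11, with H2-Eb1 at -0.65 (SE 0.09). Of 8 tested maturation genes 2 were higher (Cd40 and Relb), 1 was lower (Cxcl16) and 5 were not called, with a median of 0.032.

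Interferon-response genes were all called higher than in cluster 1, 15 of 15 tested, with a median of 2.14, and less so without the interferon-led cluster. Ifit3, an antiviral effector, stood at 12.4, 36.2 and 38.5 CPM against 0.930, 0 and 0.327 CPM, and the chemokine gene Cxcl9 at 134, 72.5 and 127 CPM against 16.98, 40.3 and 13.8 CPM. Ifit3 passed the filter on low counts through cluster 4 alone, so it could only be called higher or not at all. Ifit1 and Iigp1 were not tested. Isg15 differed by 0.84 (SE 0.11). With that cluster left out of both groups (29 cells of cluster 4 and 25 of cluster 1), 5 genes were higher and 0 lower of 10, the median was 0.37, Isg15 stood at -0.33 (adjusted p 0.186) and Cxcl9 was still called higher (1.34). Left out of cluster 4 alone, which by itself lowers these genes there, Isg15 stood at -0.58 (adjusted p 0.0128) and Cxcl9 at 0.07 (adjusted p 0.938). In the finer clustering measured on held-out UMIs, added after seeing the data, 1 was higher and 1 lower of 8, with Isg15 at -0.65 (adjusted p 0.0267). After thinning 4 of 8 were higher, but Isg15 stood at -0.08 (adjusted p 0.843).

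Immediate early genes gave 10 higher and 0 lower of 16, with Klf2 at 218, 247 and 233 CPM against 107, 111 and 108 CPM (1.01, SE 0.08) and Jun at 0.92 (SE 0.08). Monocyte or macrophage genes gave 5 higher of 7 tested: C1qa, C1qb (1.66, SE 0.30), C1qc, Apoe (1.60, SE 0.28) and Fcgr1. Their 13 genes summed to 745, 657 and 731 CPM in cluster 1, below the 791, 793 and 1024 CPM of cluster 4, and 0 of 5 were called in that same added comparison. Their part in the other differences was not tested.

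The comparison with pre-cDC-like cells shows the distance on the other side. These were 1292, 600 and 811 cells of the pair of pre-cDC-like clusters, without the cells that the table lists as cDC1s, at median depths of 10738.5, 10405 and 8736 UMIs. Cluster 4 carried far more of the cDC1 program and less of the precursor and cDC2 genes. Of 9854 genes 1241 were called higher (12.6%) and 1348 lower (13.7%), with a median of -0.0059. With the WT library left out, 834 were called higher and 888 lower. Without TMM factors 933 were higher and 1714 lower.

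Tlr3, a sensor of double-stranded RNA, stood at 77.7, 72.0 and 82.7 CPM in cluster 4 and at 3.29, 5.49 and 5.80 CPM in pre-cDC-like cells (4.18, SE 0.18). Rab7b, a small GTPase of endosomes, differed by 3.92 (SE 0.13), Xcr1 by 3.80 (SE 0.23), Id2 by 3.49 (SE 0.12) and Ifi205, a DNA-binding protein induced by interferon, by 3.42 (SE 0.12). Of 19 identity genes 18 were higher and 0 lower, with a median of 3.11. Batf3 stood at 247, 288 and 262 CPM against 30.8, 35.8 and 32.5 CPM (3.11, SE 0.09), and Irf8 at 891, 1058 and 907 CPM against 108, 144 and 125 CPM (3.03, SE 0.11). Clec9a was the member not called, and with the library as a block it was called higher (1.64, adjusted p 8.2e-09), as without the sGSN-/-Clec9a-/- library (1.65, adjusted p 0.000195), with no filter on low counts (1.61, adjusted p 1.4e-36) and after thinning (1.78, adjusted p 0.0297).

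On the lower side Cyp7b1, an oxysterol hydroxylase, stood at 68.7, 102 and 65.0 CPM in pre-cDC-like cells and was close to 0 in cluster 4. Pi16, a peptidase inhibitor (-5.47, SE 0.26), the lectin Cd209d (-4.68, SE 0.18), the lipocalin Apod (-4.62, SE 0.32) and Siglech (-3.98, SE 0.23) followed. Irf4 differed by -3.08 (SE 0.20) and Tcf4 by -2.68 (SE 0.13). All 9 tested plasmacytoid markers were lower, with a median of -2.94. The cDC2 list gave 11 lower, Irf4 and Klf4 among them, and 1 higher (Clec12a) of 13, with a median of -1.78.

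The marker genes of cluster 4 were themselves lower than in pre-cDC-like cells. S100a4 stood at 2879, 2575 and 3039 CPM there (-1.86, SE 0.13), S100a6 at 4245, 3808 and 3999 CPM (-1.46, SE 0.10), Ifitm1 at 2387, 1918 and 2118 CPM (-1.35, SE 0.11) and Cd209a at 725, 649 and 700 CPM (-1.82, SE 0.10). Cd7 stood at 538, 641 and 529 CPM (-3.27, SE 0.13). Of 10 precursor genes 7 were lower and Kit, the stem cell factor receptor, was higher (1.92, SE 0.13), while Flt3 was not called (0.22, SE 0.09). Ifitm6 went the other way, with 141, 109 and 159 CPM (0.43, SE 0.14), but was not called without the WT library (0.51, adjusted p 0.0869), without the sGSN-/- library (0.25, adjusted p 0.213) or without TMM factors (0.34, adjusted p 0.0563). Annexin, galectin and actin-binding genes, mostly higher than in other cDC1s where called, here gave 8 higher and 4 lower of 23, with a median of 0.066.

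Class II genes gave 7 higher and 1 lower (Ctss) of 11, with H2-Aa at 6643, 7132 and 7289 CPM against 4355, 3370 and 3143 CPM (1.06, SE 0.11) and H2-Ob, which tunes peptide loading, at 1.67 (SE 0.13). Lysosomal genes gave 9 lower and 3 higher of 13, led by Ctsa (-1.47, SE 0.12). Genes of the unfolded protein response gave 12 higher and 0 lower of 15 with a median of 0.42, led by the chaperone Hyou1 (0.92, SE 0.15). DNA replication genes gave 7 higher and 0 lower of 15, led by the helicase gene Hells (1.43, SE 0.17). Interferon-response genes gave 12 higher and 0 lower of 17, which became 2 higher and 3 lower of 16 without the 29 interferon-led cells. Ifit3 then turned from 2.82 to -1.29 (adjusted p 0.136), and after thinning it was not called (1.13, adjusted p 0.0824). Those cells were left out of cluster 4 alone, since pre-cDC-like cells had no such cluster, so the shift is partly built in.

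The test on held-out UMIs asks whether such genes differ when the counts measured played no part in clustering the cells. The cluster compared was still picked by its overlap with cluster 4, whose labels the authors drew from all UMIs. Both sets of UMIs come from the same cells, so the division removes only the reuse of counts in the clustering. The UMIs of each cDC1 were divided at random into a set for clustering and a set for measuring. The cluster of the first set that held most cluster 4 cells had 1282 cells, of which 435 were cluster 4 (85.0% of it), 699 were cluster 1 and 148 were others, so it covers cluster 4 and cluster 1 together rather than cluster 4 alone. In the measured set, 1715 of 9994 genes were higher (17.2%) and 1845 lower (18.5%) than in the other cDC1s, with a median of -0.0047. Left with 2 libraries, without WT, the counts were 1084 and 1197.

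Ifitm1 stood at 870, 798 and 873 CPM in the matched cluster and at 82.8, 98.0 and 74.5 CPM in the other cDC1s, a log2 difference of 3.33 (SE 0.09). Ifitm6 differed by 3.44 (adjusted p 9.4e-11), Ifitm2 by 1.08 (adjusted p 6.1e-09) and Ifitm3 by 0.91 (adjusted p 3.7e-07), each higher in 3 of 3 libraries. Cd209a differed by 2.80, S100a4 by 2.14 and S100a6 by 1.21. Like Ifitm1, these genes were already known as marker genes of the cluster to which this group was matched. Their higher level here was therefore largely set beforehand, so the values of these marker genes describe the group and test nothing.

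Of the 10 precursor genes 7 were higher on held-out UMIs, 1 lower and 2 not called. Cd34 differed by 2.73 (adjusted p 2.6e-06), Cd7 by 2.72 (adjusted p 7.9e-07) and Siglech by 2.43 (adjusted p 4.7e-06). Flt3 was lower (-0.29, adjusted p 0.00737), though not without the WT library (-0.24, adjusted p 0.111). At the finer clustering, whose cluster of 520 cells held 354 of cluster 4, Siglech was not past the threshold (0.87, adjusted p 0.119). Like Flt3, Siglech was higher in cluster 1 than in cluster 4.

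Identity genes of cDC1s gave 17 lower and 0 higher of 19, with a median of -0.69. Cadm1 fell from 110, 87.7 and 111 CPM in the other cDC1s to 19.1, 11.5 and 13.9 CPM (-2.76, adjusted p 7.4e-10). Xcr1 differed by -1.06 (adjusted p 1.3e-07), Tlr11 by -1.66 (adjusted p 1.6e-06) and Itgae by -0.69 (adjusted p 5.5e-06). Batf3 did not pass the threshold (-0.02, adjusted p 0.876), and Clec9a passed it only with the library as a block (-0.80, adjusted p 1.3e-10), with no filter on low counts (-0.75, adjusted p 3.8e-15) or without the sGSN-/-Clec9a-/- library (-0.79, adjusted p 2.6e-06). Runx3, a factor of leukocyte differentiation, was higher (0.64, adjusted p 3.8e-05).

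Genes of maturation and stimulation were lower in the matched cluster. Maturation genes gave 13 lower and 0 higher of 16 with a median of -2.87. The lower ones included Fscn1, at 0.589, 0.721 and 0 CPM against 42.0, 62.6 and 15.3 CPM, Ccr7 (-5.69, adjusted p 7.0e-06), Ccl22 (-5.12, adjusted p 4.1e-08) and Il12b (-3.64, adjusted p 1.5e-05). Fscn1 passed the filter on low counts through the other cDC1s alone, so it could only be called lower or not at all. The maturation factor Relb differed by -1.24 (adjusted p 7.0e-05). All 17 tested interferon-response genes were lower, with a median of -2.37, among them Ifit2 (-4.34, adjusted p 2.8e-08), Cxcl9 (-2.80, adjusted p 4.6e-09) and Isg15 (-1.99, adjusted p 4.6e-09). In cluster 4 itself 5 of 17 were lower, 10 were not called and 2, Irf1 and Gbp2, were higher. Immediate early genes gave 15 lower and 0 higher of 16 with a median of -0.85, among them Klf2 (-1.87, adjusted p 4.5e-11) and Egr1 (-1.64, adjusted p 7.4e-10). Ier2, higher in cluster 4 than in other cDC1s, was among the lower ones here.

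Other lists in this test had smaller medians or were divided. Class II genes gave 2 higher, 2 lower and 7 not called of 11, with a median of -0.12. Class I genes gave 8 lower and 0 higher of 10 with a median of -0.41, and ribosomal protein genes 30 higher and 0 lower of 80 with a median of 0.19. The cDC2 list, with its transcription factors Irf4 and Klf4, gave 6 higher and 2 lower (Klf4 and Clec12a) of 13 with a median of 0.65. Sirpa (0.81, adjusted p 0.0550), Irf4 (0.16, adjusted p 0.667) and the precursor gene Cx3cr1 (0.74, adjusted p 0.106), all higher in cluster 4 than in other cDC1s, did not pass the threshold here. Sirpa passed it without the sGSN-/- library (1.06, adjusted p 0.0365), without the cells of top doublet scores (0.91, adjusted p 0.0471), at resolution 1.2 (0.96, adjusted p 0.0299) and at the finer clustering (1.93). Cx3cr1 passed it with the library as a block (0.76, adjusted p 0.0457), without the WT library (1.26, adjusted p 0.0361), without the cells of top doublet scores (0.94, adjusted p 0.0378) and at the finer clustering (2.23). Annexin, galectin and actin-binding genes gave 5 higher and 8 lower of 24, with a median of -0.059. Among them Lgals1 was higher (0.73, adjusted p 1.7e-06), as was Capg (0.97, adjusted p 0.00701), though Capg not without the WT library (0.92, adjusted p 0.0828).

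The remaining lists include some that differ from those of cluster 4 itself. DNA replication genes gave 2 higher (Tipin and Dut) and 4 lower of 15, Stmn1 among the lower ones, and mitosis genes 0 higher and 4 lower of 13 with a median of -0.79. Monocyte or macrophage genes gave 0 higher and 4 lower of 8 with a median of -0.41. Lyz2 and Apoe were among the lower ones, and C1qb and Fcgr1, higher in cluster 4 than in other cDC1s, were not called. Genes of the unfolded protein response gave 9 higher and 0 lower of 15, against 0 and 4 of 15 in cluster 4. Transcription factors gave 3 higher and 7 lower of 17, lysosomal protease genes 7 higher and 1 lower of 13, and S100 genes 3 higher and 1 lower of 6. The matched cluster holds more cells of cluster 1 than of cluster 4, and the part of either in these counts was not tested.

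Between genotypes only values can be given, since each was 1 library. Within cluster 4, Clec9a stood at 91.3 CPM (exact Poisson 95% interval 80.0 to 104) in the WT library, at 99.7 CPM in the sGSN-/- library and at 0 UMIs in the sGSN-/-Clec9a-/- library. With a floor of 3 counts in that library, the level was at least 53.7-fold lower than in WT and at least 58.7-fold lower than in sGSN-/-, which goes with the label. Gsn stood at 123, 132 and 145 CPM, but these 3′ counts do not separate secreted from cytoplasmic gelsolin and check nothing on the sGSN-/- label.

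Few genes differed more than 2-fold within cluster 4 among those at 100 CPM or more in either library. Between sGSN-/- and WT 0 were higher and 4 lower of 1400 (0.286%), among them Cxcl2, Txndc16 and Hspa1b. Between sGSN-/-Clec9a-/- and WT 2 were higher (Cd14 and Gm42418) and 3 lower (Cebpb, Ppp1r14b and Jdp2) of 1380 (0.362%). Between sGSN-/-Clec9a-/- and sGSN-/- 7 were higher, led by Cxcl2, Bcl2a1b, Txndc16, Cxcl16 and Mt1, and 4 lower (Cebpb, Ppp1r14b, Idi1 and Lmna) of 1380 (0.797%).

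Several of these ratios went the same way in the other cDC1s of the same libraries, though not always by as much. Cebpb, a transcription factor of myeloid cells, stood at 155, 105 and 28.3 CPM, so that the ratio of sGSN-/-Clec9a-/- to WT was 0.183 (0.133 to 0.246) beside 0.261 in the other cDC1s. Ppp1r14b, a phosphatase inhibitor, gave 0.319 beside 0.450, and Jdp2, a repressor of the AP-1 family, 0.349 beside 0.419. For sGSN-/- to WT, the heat shock gene Hspa1b gave 0.452 beside 0.487. Gm42418, which overlaps ribosomal RNA, gave 2.10 beside 1.89 for sGSN-/-Clec9a-/- to WT, and Idi1, of sterol synthesis, 0.534 beside 0.553. For Ppp1r14b and Gm42418 the intervals of cluster 4 and of the other cDC1s did not overlap.

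Others were closer to 1 or went the other way there. Mt1, a metallothionein, stood at 344, 173 and 447 CPM, with a ratio of sGSN-/- to WT of 0.504 (0.444 to 0.571) beside 0.890 in the other cDC1s. Cd14, a coreceptor for bacterial lipid, stood at 41.2, 44.2 and 105 CPM, with a ratio of sGSN-/-Clec9a-/- to WT of 2.54 (1.99 to 3.26) beside 0.887. The chemokine gene Cxcl2 stood at 122, 42.2 and 168 CPM, with a ratio of sGSN-/- to WT of 0.345 (0.268 to 0.439) beside 1.18, but without the cells of top doublet scores that ratio became 1.79 (1.25 to 2.58). Without those cells the ratios of Mt1 and Cd14 were 0.494 and 2.27, that of Txndc16 went from 0.441 to 0.841 and that of Hspa1b from 0.452 to 0.619. From sGSN-/- to sGSN-/-Clec9a-/- Cxcl2 gave 3.99 (3.12 to 5.14) beside 0.998 in the other cDC1s, Bcl2a1b 3.19 beside 0.689, Txndc16 2.97 beside 1.05, Cxcl16 2.59 beside 0.765 and Mt1 2.58 beside 1.05. Without the cells of top doublet scores these 5 ratios ran from 2.16 to 4.05, with Bcl2a1b at 2.27.

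The survival gene Bcl2a1b (1.84), the mitochondrial gene AA467197 (1.82) and the chemokine gene Cxcl16 (1.72) were also among the highest ratios of sGSN-/-Clec9a-/- to WT, with 0.969, 0.875 and 1.05 in the other cDC1s. Lmna, of the nuclear lamina, had a ratio of sGSN-/-Clec9a-/- to sGSN-/- of 0.477 beside 1.05, and the sterol gene Hmgcs1 0.530 beside 0.636. The highest ratios of sGSN-/- to WT were smaller, among them 1.41 for the chemokine gene Ccl4 beside 0.916, 1.39 for Rgs1, a brake on G-protein signals, beside 1.42, 1.35 for Isg15 and 1.34 for Ramp1, a receptor partner for neuropeptides, beside 1.002. Without the cells of top doublet scores the ratio of Rgs1 was 2.09 (1.80 to 2.43).

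The marker genes also varied between the libraries. For sGSN-/- to WT the ratio was 0.820 for Ifitm1, 0.704 (0.655 to 0.756) for S100a4, 0.893 for S100a6 and 0.773 for Cd209a. In the other cDC1s the same ratios were 1.14, 1.18, 1.05 and 1.40. For sGSN-/-Clec9a-/- to WT the 4 genes gave 0.878, 0.923, 0.799 and 0.842, beside 0.908, 1.01, 0.966 and 0.936 in the other cDC1s. Cd7 gave 0.692 within cluster 4 for sGSN-/- to WT, beside 0.894 in the other cDC1s. For sGSN-/-Clec9a-/- to WT it gave 0.644 beside 0.504.

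Since the Ifitm genes stood out together, their promoters were read for the letters of interferon control. The genes Ifitm1 (chr7:140967221-140969825), Ifitm2 (chr7:140954837-140955987), Ifitm3 (chr7:141009586-141010770) and Ifitm6 (chr7:141015699-141017924), lie close together in GRCm38, and Ifitm10 lies apart. Windows of 300 bases, 250 before and 50 after each gene start, were taken from RefSeq on GRCm38.p6. The interferon-stimulated response element was searched as GAAA, any 2 bases and GAAA, and the gamma-activated site as TTC, any 3 bases and GAA, on both strands. Of 32851 promoter windows of that length, 1131 (3.44%) held the first and 2726 (8.30%) the second.

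All 5 listed Ifitm genes had windows, and 2 of them held the response element: Ifitm2 with 1 match 46 bases before the start, and Ifitm3 with 2 matches after it, GAAAAGGAAA and GAAACCGAAA. Ifitm3 and Ifitm6 held the gamma-activated site. For Ifitm1, these letters are not in its window, which in this annotation lies inside the span of the gene. Of 9 listed S100 genes 8 had windows and 0 held either motif, and of 18 interferon-response genes 14 had windows, 7 with the first and 5 with the second motif. A match describes letters and says nothing of a bound factor. Printed here, for the eye to compare, are the parts of the windows ahead of any annotated exon in them, which for Ifitm1 is a stretch within the gene, for Ifitm1 (chr7:140967826-140968027, plus strand), Ifitm2 (chr7:140955988-140956211, minus strand) and Ifit3 (chr19:34583279-34583528, plus strand), in lower case with matches to the response element in capitals.
Ifitm1: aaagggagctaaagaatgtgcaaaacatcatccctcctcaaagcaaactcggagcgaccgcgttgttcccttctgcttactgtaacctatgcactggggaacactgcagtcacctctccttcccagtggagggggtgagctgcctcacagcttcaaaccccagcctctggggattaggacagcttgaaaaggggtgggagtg
Ifitm2: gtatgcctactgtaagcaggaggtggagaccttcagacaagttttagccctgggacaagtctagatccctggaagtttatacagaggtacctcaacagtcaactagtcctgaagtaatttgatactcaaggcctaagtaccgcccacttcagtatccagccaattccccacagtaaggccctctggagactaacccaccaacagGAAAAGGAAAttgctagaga
Ifit3: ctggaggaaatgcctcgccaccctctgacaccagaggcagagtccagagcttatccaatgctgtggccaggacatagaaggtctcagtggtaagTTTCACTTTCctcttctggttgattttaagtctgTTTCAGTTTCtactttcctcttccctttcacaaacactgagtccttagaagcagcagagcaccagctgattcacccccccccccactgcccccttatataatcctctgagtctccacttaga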

How the data were processed

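The deposited matrices hold counts, UMIs per gene and barcode, which the authors made with Cell Ranger 6.0.1 on the mm10 reference, for 32285 genes. The authors' table of cDC1s holds UMI counts and cluster numbers from Seurat (4.0.0 per the labels, 3 per the study's methods). All 5806 of its cells matched a barcode, and its UMIs equalled the matrix sums in 4559 of them, with a largest difference of 34. The members and the gene lists were chosen with earlier results of these data known.

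UMIs were summed per library and cell group. Groups were compared in edgeR 4.0.16 (R 4.3.3) with TMM factors, filterByExpr and quasi-likelihood F-tests, and genes were called at a Benjamini-Hochberg adjusted p below 0.05. Comparisons of clusters called on the same counts are descriptions. A gene near 0 in one group passes filterByExpr through the other group alone, which fixes beforehand the direction it can be called in. For the comparison on held-out UMIs, every cell's UMIs were split randomly in 2 sets. Clusters were drawn from the first set (Leiden, resolution 0.8) and levels compared in the second. For the second clustering, 54 barcodes under 200 genes and 1300 over a mitochondrial share of 16.7% (mean plus 2 SD) were left out. It used 2000 variable genes, 50 principal components, 20 neighbours and Leiden resolution 1 and gave 27 clusters, each named for the type with the largest share of its markers raised, where at least 3 were detected in 10% of cells and stood at 2 times the median cluster or more. A name gave way where the 10 leading genes held more markers of another type, and was withheld from low-depth clusters whose leading genes held none. Python 3.11.15, scanpy 1.11.5, leidenalg 0.10.2, numpy 2.4.6, scipy 1.17.1 and scikit-learn 1.9.0 were used. Doublet scores came from the Scrublet method, and the top 6% in each library were left out as an alternative. Genotypes had 1 library each, so their values carry counting intervals (95%) only.

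The genes named are the cluster's given markers, members of the 30 lists, and the genes with the largest and smallest log2 differences among those called, at 50 CPM or more and without overlap between libraries. That was 10 each way against other cDC1s and 5 each way against cluster 1 and pre-cDC-like cells. Between genotypes it was 5 each way at 100 CPM or more, ranked after adding 0.5 CPM. Any other gene named was chosen after its values were seen, and some genes under these rules are not reported here.

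Both sums of a library come from the same pool of mice. Once group means were removed, sums of the same library correlated at 0.289 to 0.696, in each case above any pair of different libraries. Removing the means of only 3 libraries itself lowers the correlations between different libraries, so that contrast is partly built in. With the library as replicate block, genes called higher and lower numbered 1424 and 1477 against other cDC1s, 1024 and 910 against cluster 1, 1455 and 1498 against pre-cDC-like cells, and 2064 and 2107 on held-out UMIs. Other alternatives were DESeq2 1.42.0, sums without TMM factors, all genes with a UMI, fits on 2 of the 3 libraries, thinning of cells to 3900 UMIs, other resolutions (0.5 and 2 for all barcodes, 0.5, 1.2 and 2 on the first set), another random division, subsets of cluster 4, and both groups without the interferon-led cluster.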

Additional observations from a re-analysis of the deposited data

How the results depend on the processing

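Of the named genes, 876 of 922 values under alternatives kept their direction and side of the threshold against other cDC1s, 439 of 459 against cluster 1, 394 of 403 against pre-cDC-like cells and 403 of 420 on held-out UMIs. Shares of cluster 4 stayed within their intervals under every alternative. Replicates are few: each library left out leaves 2 per group, and calls fall with fewer libraries by construction. Thinned cells carry fewer UMIs and fewer genes pass the filter. For all other changes below the cause was not tested. The subsets of cluster 4 and of the cells compared with it and resolution 2 on the first set of UMIs were chosen after seeing the data.

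Leaving out each library in turn, genes called numbered 614 to 880 higher and 631 to 1104 lower against other cDC1s, 441 to 620 and 267 to 528 against cluster 1, 834 to 1071 and 888 to 1123 against pre-cDC-like cells, and 1084 to 1464 and 1197 to 1528 on held-out UMIs. After thinning they were 809 and 874 against other cDC1s, 308 and 266 against cluster 1, and 747 and 823 against pre-cDC-like cells. Against cluster 1, DESeq2 called 493 and 380, and without TMM factors 1005 and 360 were called, with the median log2 difference at 0.0996. Without TMM factors 1526 and 1078 were called against other cDC1s, with that median at 0.0578. Against pre-cDC-like cells they were 933 and 1714, with the median at -0.104. With no filter on low counts the medians were -0.164 against other cDC1s, -0.106 against pre-cDC-like cells and -0.139 on held-out UMIs. At resolution 2 on the first set, 1136 genes were higher and 1293 lower than in other cDC1s, and 337 and 387 against the cluster nearest to cluster 1.

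Batf3, not called in any comparison with cDC1s, changed sign most often. Against other cDC1s its log2 difference was 0.0082 without TMM factors, 0.0892 after thinning, 0.0380 without top doublet scores, 0.0423 in cDC1-like cells only, 0.0289 without interferon-led cells of cluster 4 and 0.0555 without them in both groups (adjusted p 0.542 to 0.951). Against cluster 1 it was -0.0079 with no filter (adjusted p 0.968) and -0.0395 to 0.0488 with a library left out. On held-out UMIs it was 0.0170 at resolution 2 (adjusted p 0.903) and -0.0408 to 0.0290 with a library left out. Irf4 on held-out UMIs was -0.0901 with another random division (adjusted p 0.841). Siglech against other cDC1s ranged from -0.30 without the WT library to 0.0738 without the sGSN-/- library.

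Interferon genes changed with the cells included. Without the interferon-led cluster in both groups, Gbp2 against other cDC1s was -0.58 (adjusted p 0.569) and Isg15 against cluster 1 was -0.33 (adjusted p 0.186). Without its cells in cluster 4 alone, which lowers these genes by construction, Gbp2 against other cDC1s was -1.43 (adjusted p 0.0915), Isg15 against cluster 1 was -0.58 (adjusted p 0.0128) and Ifit3 against pre-cDC-like cells was -1.29 (adjusted p 0.136). Isg15 against cluster 1 was -0.0766 after thinning (adjusted p 0.843). At resolution 2 the comparison with cluster 1 gave Isg15 -0.65 (adjusted p 0.0267), Cxcl9 -0.0680 (not called), Ifitm1 0.48 (adjusted p 0.0118), Ifitm2 0.32 (adjusted p 0.0382) and Irf8 0.0663 (adjusted p 0.767).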
